A study of Rattus norvegicus with 12 samples.

Results

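The genes described here move phosphate and pyrophosphate across the membranes and the matrix of bone-forming cells. They are the 10 genes *Enpp1*, *Ankh*, *Alpl*, *Phospho1*, *Smpd3*, *Slc20a1*, *Slc20a2*, *Xpr1*, *Stc1* and *Stc2*, chosen by their gene symbols with earlier results of these data known. All 10 were listed in both deposited expression tables, which share 18058 genes. UMR-106 cells, an osteoblast-like line derived from a rat osteosarcoma, were studied in 4 groups of 3 libraries: NFAT5KO with +NaCl, NFAT5KO with -NaCl, control with +NaCl and control with -NaCl. The +NaCl medium had 20 mM more NaCl and the -NaCl medium 20 mM less, a difference of 40 mM, for 24 h. None of the 4 groups had unaltered medium, so a rise with +NaCl cannot be told from a fall with -NaCl. All groups received the active vitamin D hormone calcitriol. The NFAT5KO cells are a clone grown from a single CRISPR/Cas9-edited cell, and the control cells are unedited in genotype by their labels (WT), so loss of NFAT5 and other properties of that clone cannot be told apart. NFAT5 is the transcription factor that switches on osmoprotective genes in hypertonic medium. The comparison asks which genes respond to the change of NaCl and whether that response differs without NFAT5. NaCl alters sodium and tonicity together, and these groups cannot tell them apart.

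Mineral grows where phosphate is abundant and pyrophosphate, which blocks crystal growth, is scarce. ENPP1 makes pyrophosphate outside the cell from nucleoside triphosphates, and ANKH promotes the release of ATP and pyrophosphate from the cell. The alkaline phosphatase ALPL splits pyrophosphate into phosphate. Inside matrix vesicles, the small membrane bodies where mineral first forms, PHOSPHO1 frees phosphate from phosphocholine, which in turn comes from sphingomyelin through the phospholipase SMPD3. SLC20A1 and SLC20A2 carry phosphate into the cell with sodium, XPR1 carries it out, and the stanniocalcins STC1 and STC2 are secreted glycoproteins that bind and inhibit pappalysin proteases.

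In the coordinates listed in the tables, whose genome build is not stated there, *Enpp1* lies at chr1:21748261-21813371, *Ankh* at chr2:80131563-80256954, *Alpl* at chr5:156086497-156141537, *Phospho1* at chr10:83636518-83643859 and *Smpd3* at chr19:38237965-38321528. *Slc20a1* lies at chr3:121725859-121739173, *Slc20a2* at chr16:74317899-74408030, *Xpr1* at chr13:72918552-73056785, *Stc1* at chr15:50891127-50903162 and *Stc2* at chr10:16542882-16553295. All 10 are protein-coding and none overlaps another listed gene. *Smpd3* is on the same chromosome as the edited gene *Nfat5*, 124530 bases away with 4 listed genes between them.

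Promoter sequence was at hand for 5 of the 10 genes, *Ankh*, *Alpl*, *Phospho1*, *Xpr1* and *Stc2* (RefSeq, GRCr8). The 250 bases before the start of *Ankh* (chr2:79883201-79883450, plus strand), *Alpl* (chr5:155289786-155290035, minus strand) and *Phospho1* (chr10:81258560-81258809, plus strand) are shown because these genes rose together with +NaCl in control cells. Capitals mark GGGCGG, the GC box bound by SP family factors, on either strand.
Ankh: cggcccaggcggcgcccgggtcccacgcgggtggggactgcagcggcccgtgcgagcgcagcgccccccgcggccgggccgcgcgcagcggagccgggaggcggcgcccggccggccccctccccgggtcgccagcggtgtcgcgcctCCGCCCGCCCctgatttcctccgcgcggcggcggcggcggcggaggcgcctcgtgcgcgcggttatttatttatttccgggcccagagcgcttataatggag
Alpl: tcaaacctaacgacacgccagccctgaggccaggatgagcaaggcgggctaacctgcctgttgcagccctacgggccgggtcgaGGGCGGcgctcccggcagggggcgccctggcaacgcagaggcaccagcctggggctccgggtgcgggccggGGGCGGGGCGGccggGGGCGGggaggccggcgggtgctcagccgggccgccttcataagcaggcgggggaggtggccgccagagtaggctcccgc
Phospho1: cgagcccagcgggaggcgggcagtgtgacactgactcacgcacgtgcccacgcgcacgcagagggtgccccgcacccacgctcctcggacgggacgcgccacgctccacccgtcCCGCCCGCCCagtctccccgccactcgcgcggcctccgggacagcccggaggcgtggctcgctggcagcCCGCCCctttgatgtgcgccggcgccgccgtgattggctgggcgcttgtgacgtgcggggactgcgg
With overlapping matches counted, the box GGGCGG occurred 2 times before *Ankh*, 4 times before *Alpl*, 3 times before *Phospho1*, 5 times before *Xpr1* and 0 times before *Stc2*. Of 33469 rat promoter windows of the same length, 30.5% held it at least once. The letters TGGAAA, the core bound by NFAT proteins, TGTGGT, the core bound by RUNX factors, and the tonicity-responsive enhancer consensus were absent from all 5 windows on both strands. They were present in 19.7%, 14.5% and 5.17% of all windows, in that order. The 5 windows held 66.4% to 79.2% G and C, against a median of 51.2% over all windows.

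Depth, taken from reads recovered from the normalized values, had a median of 15094072 reads in NFAT5KO libraries with +NaCl, 21232480 in NFAT5KO with -NaCl, 15647893 in control with +NaCl and 18476590 in control with -NaCl. Over the 12 libraries, *Stc1* had 93 to 266 reads and *Alpl* 8517 to 19053, so counting error was largest for *Stc1*. All 8 osteoblast markers were listed, with summed normalized counts of 69182 to 88939 in NFAT5KO libraries and 62147 to 110609 in control libraries. The 4 markers each of adipocytes, leukocytes, endothelium and skeletal muscle, where listed, summed to 3.19 to 44.8 in a library. *Pecam1* was not listed in either table. *Lep*, *Ptprc* and *Myod1* were not listed for NFAT5KO, so each of its sums for these types holds 3 markers. The 4 chondrocyte markers summed to 20.7 to 42.7 in NFAT5KO and 140 to 197 in control libraries, all 4 being listed. NFAT5KO -NaCl replicate 1 stood apart, with a score of -5.63 on the first principal component of its genotype, against -22.9 and -19.8 in replicates 2 and 3. Without this library the NFAT5KO log2 fold changes were 0.57 for *Enpp1*, 0.47 for *Ankh* and 0.91 for *Nfat5*, and those of *Phospho1* and *Smpd3* and the differences that passed among the 10 genes are given beside their results.

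*Nfat5* itself was checked first. Its normalized read counts were 1403, 1590.4 and 1626 in NFAT5KO cells with +NaCl and 1036, 792 and 843 in NFAT5KO cells with -NaCl. Control cells had 4292, 4217 and 4575 with +NaCl and 2925, 2689 and 2799 with -NaCl. In CPM, the recovered reads scaled to the same total in every library, the NFAT5KO level was 0.332 of control with +NaCl and 0.296 with -NaCl, lower in every NFAT5KO library and well above 0. *Nfat5* mRNA rose with +NaCl in both NFAT5KO (log2 fold change 0.80 ± 0.10, SE) and control cells (0.64 ± 0.05). These are mRNA counts of the whole gene and do not measure NFAT5 protein. The study reported complete loss of NFAT5 in this clone by immunoblot, and *Nfat5* mRNA was not detected there by its qRT-PCR. The reason for the remaining reads was not tested.

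Among the 10 genes, 4 rose with +NaCl in NFAT5KO cells and 5 in control cells, and 0 fell in either genotype by limma, edgeR or DESeq2. At an unadjusted p below 0.05, 0 were lower by limma and 1 by edgeR, in control cells. *Enpp1*, *Ankh*, *Phospho1* and *Smpd3* rose in both, and *Alpl* rose in control cells. Within limma, the 4 calls in NFAT5KO cells depended on its trend of variance on mean level. Without the trend 0 passed (adjusted p 0.0846 to 0.107, 5 at an unadjusted p below 0.05), while all 5 calls in control cells still did. Over all genes, 14 then passed in NFAT5KO cells instead of 2441. By edgeR and by DESeq2, 4 of the 10 genes passed in NFAT5KO cells. The call is an adjusted p below 0.05 from limma on log2 normalized counts, corrected over all genes tested (Benjamini-Hochberg). By this call 14.7% of all 16657 genes tested changed in NFAT5KO cells, 7.29% upward and 7.37% downward. In control cells 26.0% of 17108 genes changed, 13.3% upward and 12.7% downward. The median log2 fold change of the 10 genes was 0.22 in NFAT5KO and 0.31 in control cells, against 0.00092 and -0.0018 over all genes tested. The +NaCl libraries were all above the -NaCl libraries for 6 of the 10 genes in NFAT5KO and 5 in control cells, where 17.0% and 20.5% of all genes showed this. None of the 10 had all +NaCl libraries below, as 17.2% of genes did in NFAT5KO and 20.1% in control cells, and the media were separate in either direction for 34.3% and 40.7% of genes. The labels do not tell whether libraries of a group came from separate cultures, which the study calls biological replicates, so the p-values measure the spread between these libraries.

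**Figure D1:**
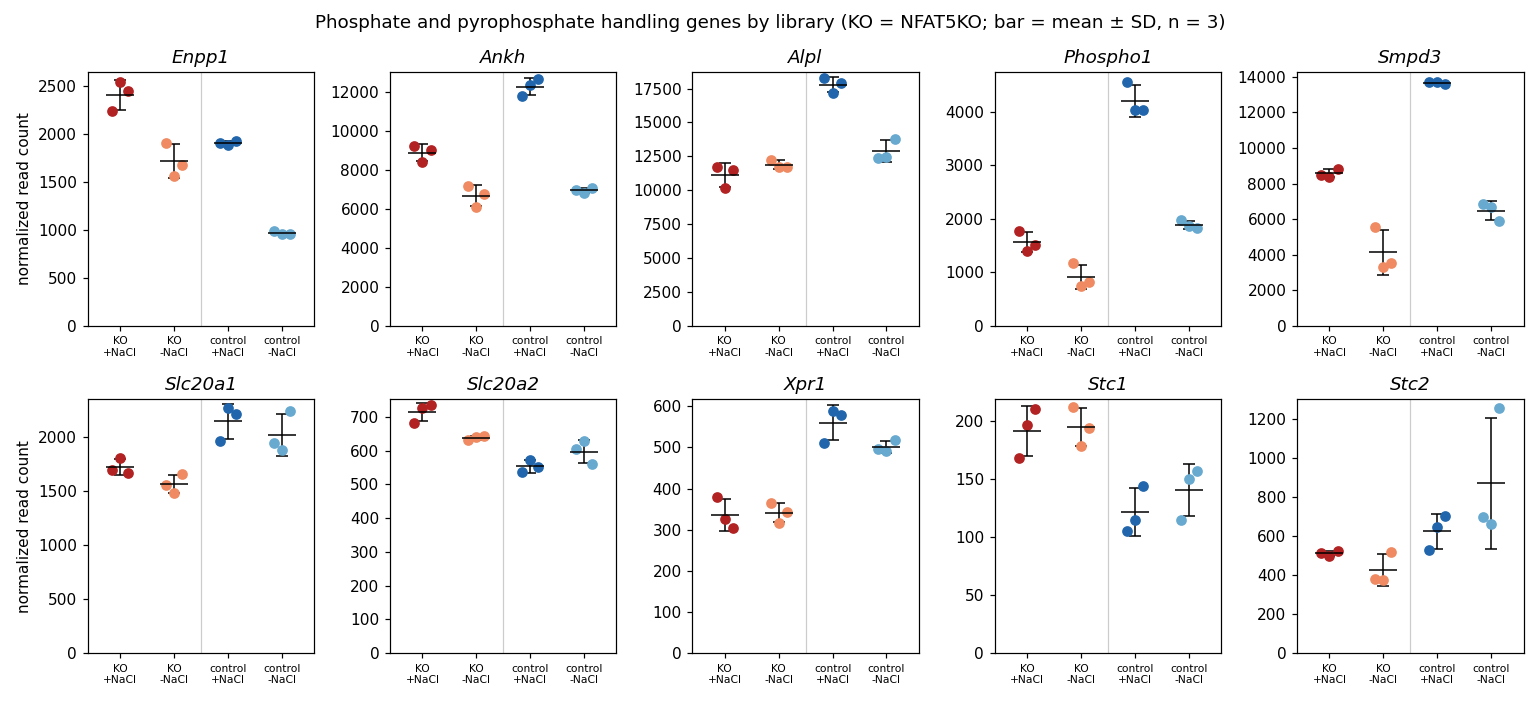
Normalized read counts of the 10 genes in each library (points, 3 per group), with mean ± SD, for NFAT5KO and control cells with +NaCl and -NaCl, normalized separately by genotype. *Smpd3* with +NaCl lies at 8384 to 8823 in NFAT5KO and 13616 to 13729.5 in control cells, above every -NaCl library of its genotype.

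The suppliers of pyrophosphate rose in both genotypes, by less in NFAT5KO cells. *Enpp1* had 2239, 2545 and 2449.9 normalized counts in NFAT5KO cells with +NaCl, against 1908, 1559.9 and 1677 with -NaCl. In control cells it had 1906, 1888 and 1924 with +NaCl, against 986, 957 and 958 with -NaCl. The media did not overlap in either genotype. The log2 fold change was 0.49 ± 0.08 (SE, adjusted p = 0.0025) in NFAT5KO and 0.98 ± 0.04 (adjusted p = 2.1e-07) in control cells. The difference of the responses was -0.48 ± 0.09 (adjusted p = 0.0117).

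*Ankh* also rose in both genotypes. Its normalized counts were 9216, 8429.6 and 9039.6 in NFAT5KO cells with +NaCl and 7154, 6079 and 6776 with -NaCl. Control cells had 11798, 12352 and 12658 with +NaCl and 6951, 6840.4 and 7074 with -NaCl. The +NaCl libraries were all above the -NaCl libraries in both genotypes. The log2 fold change was 0.42 ± 0.07 (adjusted p = 0.0026) in NFAT5KO and 0.82 ± 0.04 (adjusted p = 2.1e-07) in control cells, and the responses differed by -0.40 ± 0.08 (adjusted p = 0.0158). This difference no longer passed when control +NaCl replicate 3 was left out (-0.38), nor when control -NaCl replicate 2 was (-0.39, adjusted p up to 0.0570).

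*Alpl*, which removes pyrophosphate, responded in control cells. NFAT5KO cells had 11720.5, 10146 and 11495 normalized counts with +NaCl and 12250.3, 11677 and 11689.6 with -NaCl, and the media overlapped. Control cells had 18256, 17207 and 17901 with +NaCl and 12384, 12475 and 13805 with -NaCl, with no overlap. The log2 fold change was -0.10 ± 0.06 (adjusted p = 0.334) in NFAT5KO and 0.47 ± 0.05 (adjusted p = 4.1e-05) in control cells. The difference, -0.56 ± 0.08 (adjusted p = 0.0014), was past the threshold under every alternative run (adjusted p at most 0.0415).

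Over the 10 genes, the difference of the responses passed for *Enpp1*, *Ankh* and *Alpl*, all lower in NFAT5KO cells. It passed for 0 in the other direction by limma, edgeR or DESeq2, with 2 at an unadjusted p below 0.05. Among 16849 genes tested, 1.80% differed, 1.44% lower and 0.362% higher in NFAT5KO cells. The median difference of the 10 genes was -0.09, against -0.0012 over all genes. Leaving out NFAT5KO -NaCl replicate 1 gave differences of -0.41 for *Enpp1* (adjusted p = 0.0177), -0.35 for *Ankh* (adjusted p = 0.0350) and -0.54 for *Alpl* (adjusted p = 0.0045). Without the trend of variance on mean level, the difference passed for *Alpl* and no longer for *Enpp1* (adjusted p = 0.1004) or *Ankh* (adjusted p = 0.117). The comparisons share no libraries between genotypes, and the difference is taken within each table, so the separate scaling of the tables cancels.

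**Figure D2:**
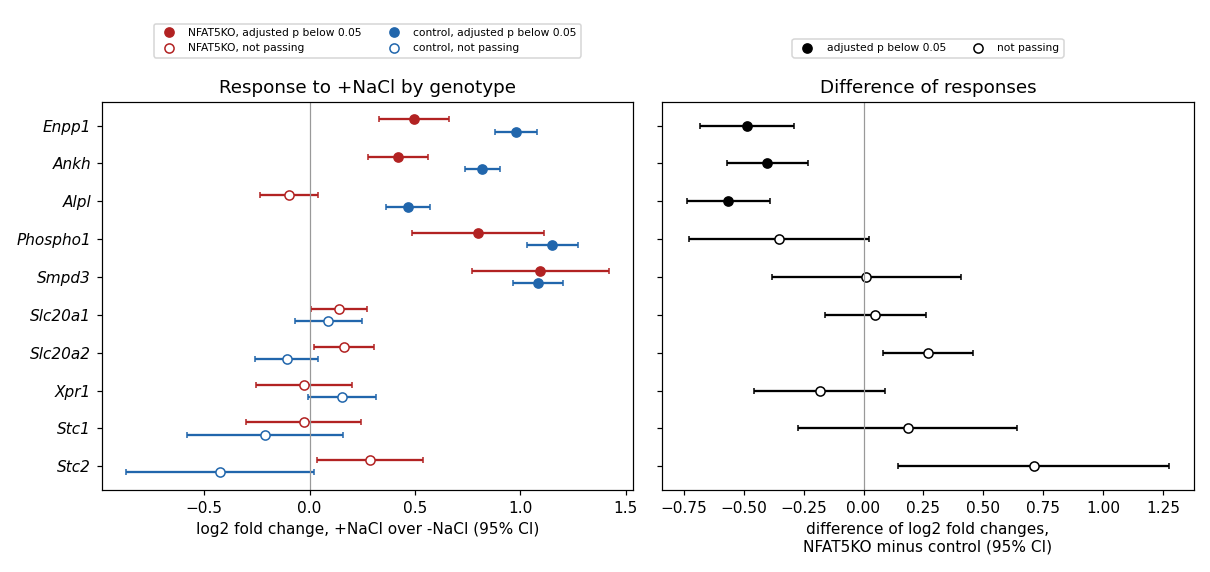
Left, log2 fold change of +NaCl over -NaCl with 95% confidence interval for each gene in NFAT5KO (red) and control cells (blue); right, the NFAT5KO minus control difference, with filled points where the adjusted p was below 0.05. *Enpp1*, *Ankh* and *Alpl* are the 3 filled points on the right, at -0.48, -0.40 and -0.56.

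The matrix vesicle pair *Phospho1* and *Smpd3* had the largest fold changes of the 10 genes in both genotypes. *Phospho1* had 1773, 1399 and 1515 normalized counts in NFAT5KO cells with +NaCl, against 1176, 744 and 816 with -NaCl. In control cells it had 4550.0, 4035 and 4032 with +NaCl, against 1973, 1868 and 1829 with -NaCl. The media did not overlap in either genotype. The log2 fold change was 0.80 ± 0.14 (adjusted p = 0.0046) in NFAT5KO and 1.15 ± 0.05 (adjusted p = 2.3e-07) in control cells. The estimated difference of the responses was -0.35 (95% interval -0.73 to 0.02, adjusted p = 0.418), so a difference was not shown.

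*Smpd3* had 8497, 8384 and 8823 normalized counts in NFAT5KO cells with +NaCl and 5578, 3300.0 and 3503 with -NaCl. Control cells had 13689.6, 13729.5 and 13616 with +NaCl and 6869, 6666 and 5871 with -NaCl. The highest of the NFAT5KO -NaCl values, 5578, came from the library that stood apart. Its log2 fold change was 1.09 ± 0.15 (adjusted p = 0.0013) in NFAT5KO and 1.08 ± 0.05 (adjusted p = 2.8e-07) in control cells. The difference was 0.01 (95% interval -0.38 to 0.41, adjusted p = 0.990). Without NFAT5KO -NaCl replicate 1, the NFAT5KO log2 fold change was 1.33 for *Smpd3* and 1.00 for *Phospho1*, and the differences from control were 0.25 (adjusted p = 0.183) and -0.16 (adjusted p = 0.637).

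**Figure D3:**
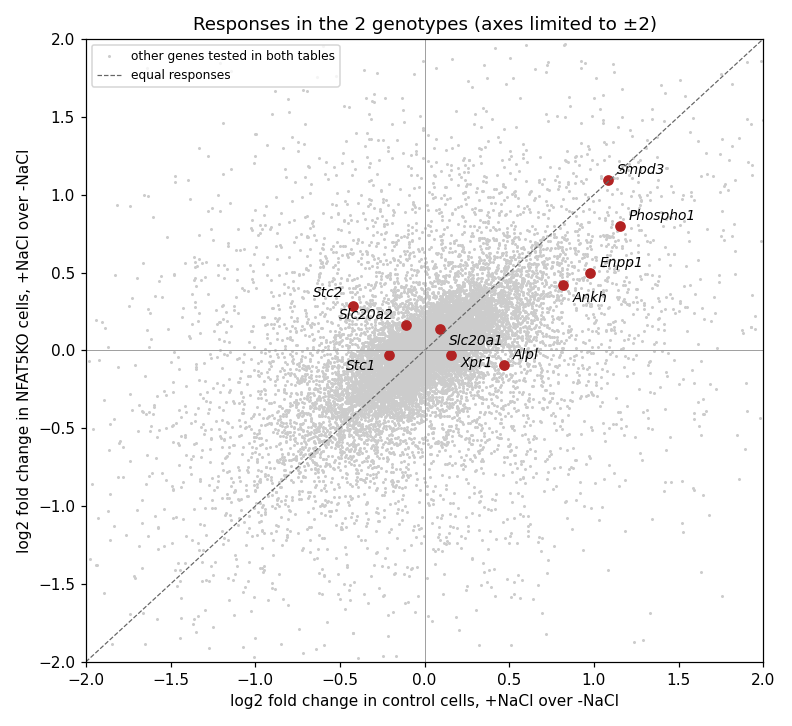
Log2 fold change of +NaCl over -NaCl in NFAT5KO cells (vertical axis) against control cells (horizontal axis), with the 10 genes in red, other genes in grey and equal responses as a dashed line. *Smpd3* lies near the line at 1.09 in NFAT5KO and 1.08 in control cells, while *Alpl*, *Enpp1* and *Ankh* lie below it.

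The phosphate importers had smaller changes, none of which passed. *Slc20a1* had 1699, 1802 and 1666 normalized counts in NFAT5KO cells with +NaCl and 1553, 1484 and 1656 with -NaCl. Control cells had 1964, 2267 and 2213 with +NaCl and 1942, 1879.9 and 2237 with -NaCl. The media overlapped in control cells, and in NFAT5KO cells the lowest +NaCl library (1666) lay just above the highest -NaCl library (1656). Its log2 fold change was 0.14 ± 0.06 (adjusted p = 0.144) in NFAT5KO and 0.09 ± 0.07 (adjusted p = 0.415) in control cells, with a difference of 0.05 (95% interval -0.16 to 0.26).

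*Slc20a2* had 682, 727 and 734 normalized counts in NFAT5KO cells with +NaCl, all above the 632, 639 and 644 with -NaCl. Control cells had 536, 573 and 552 with +NaCl and 605, 627 and 559 with -NaCl, which overlapped. The log2 fold change was 0.16 ± 0.07 (adjusted p = 0.121) in NFAT5KO and -0.11 ± 0.07 (adjusted p = 0.281) in control cells. Its difference of 0.27 (95% interval 0.08 to 0.46) did not pass after correction over all genes (adjusted p = 0.160).

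The exporter *Xpr1* had 380.1, 325 and 303 normalized counts in NFAT5KO cells with +NaCl and 365, 317 and 343 with -NaCl. Control cells had 512, 589 and 579.7 with +NaCl and 495, 492 and 518 with -NaCl. The media overlapped in both genotypes. Its log2 fold change was -0.03 ± 0.10 (adjusted p = 0.900) in NFAT5KO and 0.16 ± 0.07 (adjusted p = 0.149) in control cells. The estimated difference was -0.18 (95% interval -0.45 to 0.09).

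Of the stanniocalcins, *Stc1* was the less abundant per kilobase. It had 168, 197 and 211 normalized counts in NFAT5KO cells with +NaCl and 212, 179 and 195 with -NaCl, against 105, 115 and 145 in control cells with +NaCl and 115, 150.1 and 157 with -NaCl. The media overlapped in both genotypes. Its log2 fold change was -0.03 ± 0.13 (adjusted p = 0.913) in NFAT5KO and -0.21 ± 0.17 (adjusted p = 0.407) in control cells, and the difference was 0.18 (95% interval -0.27 to 0.64).

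*Stc2* had 514, 498 and 524 normalized counts in NFAT5KO cells with +NaCl and 381, 374 and 518 with -NaCl. Control cells had 528, 645 and 701 with +NaCl and 695, 659 and 1256 with -NaCl. Each genotype had a high -NaCl library, replicate 3. In NFAT5KO cells this library (518) set the overlap of the media and the spread. In control cells the high library (1256) set the spread. There the media overlapped through +NaCl replicate 3 (701), which lay above -NaCl replicates 1 and 2. The log2 fold change was 0.29 ± 0.11 (adjusted p = 0.119) in NFAT5KO and -0.42 ± 0.20 (adjusted p = 0.158) in control cells, with a difference of 0.71 (95% interval 0.14 to 1.27, adjusted p = 0.241). Without the high NFAT5KO library the NFAT5KO value was 0.44 and passed (adjusted p = 0.0192), and without the high control library the control value was -0.13.

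Levels were then compared between genes in RPKM, that is CPM divided by the listed gene length in kilobases. *Alpl*, *Ankh* and *Smpd3* were the most abundant in this order and *Stc1* the least in all 4 groups. *Alpl* averaged 251 ± 17.1 (SD, n = 3) in NFAT5KO cells with +NaCl, 268 ± 7.71 in NFAT5KO with -NaCl, 427 ± 13.6 in control with +NaCl and 311 ± 15.9 in control with -NaCl. *Stc1* averaged 2.76 ± 0.30 in NFAT5KO cells with +NaCl, 2.81 ± 0.24 in NFAT5KO with -NaCl, 1.86 ± 0.31 in control with +NaCl and 2.16 ± 0.33 in control with -NaCl. *Phospho1* was the fourth most abundant in 3 groups, and in NFAT5KO cells with -NaCl its 25.1 ± 6.39 overlapped the 27.8 ± 1.66 of *Slc20a1* and the 23.0 ± 2.42 of *Enpp1*. *Enpp1* and *Slc20a1* also overlapped in NFAT5KO cells with +NaCl, as did *Slc20a1* and *Stc2* in control cells with -NaCl. Other neighbours in the order were separate in all libraries of a group.

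**Figure D4:**
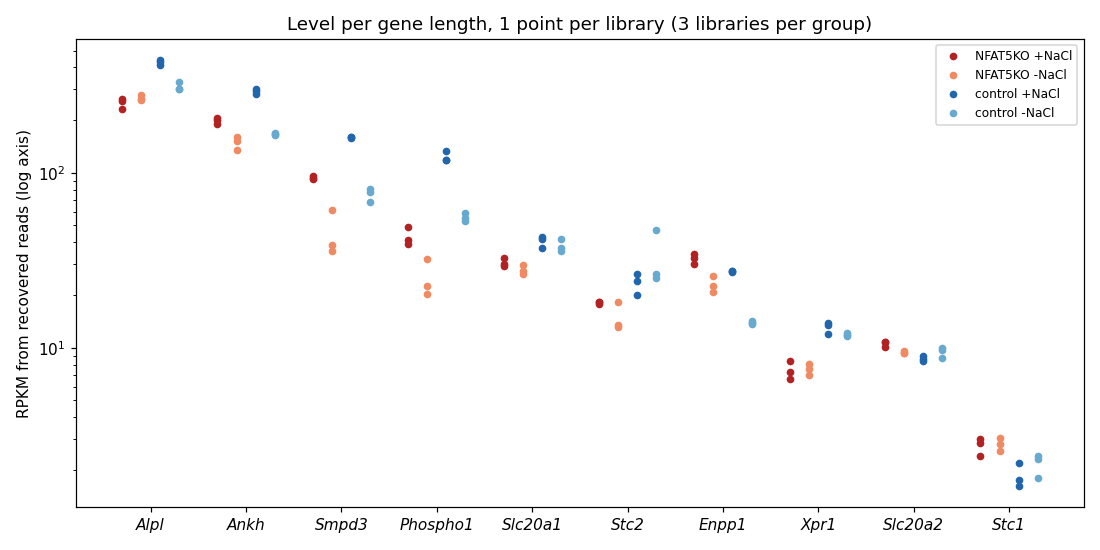
RPKM (CPM divided by gene length in kilobases, log axis) of each gene in every library, 3 points per group, with NFAT5KO groups left of control groups. *Alpl* averages 251 in NFAT5KO and 427 in control cells with +NaCl, and *Stc1* is lowest in every group.

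Ratios of 2 genes within a library do not depend on its depth, and those of *Alpl* set mRNA of the enzyme that splits pyrophosphate against mRNA of its suppliers. *Alpl* over *Ankh*, per kilobase, was 1.26 ± 0.04 in NFAT5KO cells with +NaCl against 1.80 ± 0.12 with -NaCl, and 1.46 ± 0.08 in control cells with +NaCl against 1.87 ± 0.09 with -NaCl. *Alpl* over *Enpp1* was 7.80 ± 1.05 in NFAT5KO cells with +NaCl against 11.7 ± 0.90 with -NaCl, and 15.7 ± 0.39 in control cells with +NaCl against 22.4 ± 1.62 with -NaCl. Both ratios were lower in every +NaCl library than in every -NaCl library of its genotype. *Phospho1* over *Smpd3* was 0.459 ± 0.058 in NFAT5KO cells with +NaCl against 0.561 ± 0.028 with -NaCl, and 0.774 ± 0.054 in control cells with +NaCl against 0.737 ± 0.041 with -NaCl. The ratio of the importers was lower in every NFAT5KO library than in every control library, with *Slc20a1* over *Slc20a2* at 2.91 ± 0.15 and 2.95 ± 0.15 in NFAT5KO cells with +NaCl and -NaCl, and 4.67 ± 0.22 and 4.10 ± 0.64 in control cells. These ratios are descriptions without a test.

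**Figure D5:**
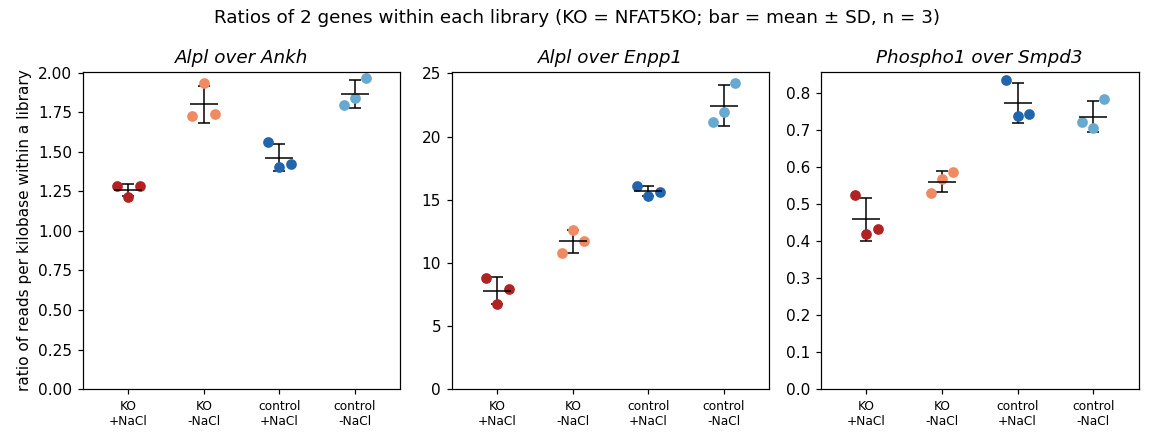
Ratios of reads per kilobase of 2 genes within each library (points), with mean ± SD, for *Alpl* over *Ankh*, *Alpl* over *Enpp1* and *Phospho1* over *Smpd3*. *Alpl* over *Enpp1* is 7.80 and 11.7 in NFAT5KO cells with +NaCl and -NaCl, and 15.7 and 22.4 in control cells.

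Between genotypes, levels in CPM were set side by side without a test, since the tables were normalized separately and the knockout is 1 clone. All NFAT5KO libraries were below all control libraries for 7 of the 10 genes in each medium, where 25.6% of all genes tested showed this with +NaCl and 23.7% with -NaCl. They were above all control libraries for 3 of the 10 with +NaCl and 2 with -NaCl, against 19.0% and 16.1% of all genes tested. The NFAT5KO level of *Phospho1* was 0.349 of control with +NaCl and 0.450 with -NaCl, that of *Smpd3* was 0.588 and 0.595, and that of *Xpr1* was 0.564 and 0.636. *Alpl* was at 0.587 of control with +NaCl and 0.860 with -NaCl, and *Ankh* at 0.681 and 0.896. *Slc20a1* was at 0.754 and 0.724 and *Stc2* at 0.770 and 0.457. *Enpp1* was higher in every NFAT5KO library, at 1.19 times control with +NaCl and 1.66 times with -NaCl, as was *Stc1* at 1.48 and 1.30. *Slc20a2* was at 1.21 with +NaCl, and its genotypes overlapped with -NaCl at a ratio of 0.998 (1.02 with TMM scaling). In these bulk samples fewer cells of a type and less RNA per cell cannot be told apart. Of the osteoblast markers, 3 of 8 (*Ibsp*, *Runx2* and *Sp7*) rose with +NaCl in NFAT5KO cells and 7 of 8 in control cells, *Alpl* among them. Of all genes tested, 7.29% and 13.3% rose. The log2 fold change was negative, without passing, for *Alpl* (-0.10) and *Spp1* (-0.13) in NFAT5KO cells and for *Bglap* (-0.24) in control cells. *Bglap* was low, averaging 4.36 to 11.7 normalized counts in a group. The responses of 3 of the 8, *Alpl*, *Runx2* and *Spp1*, differed, all lower in NFAT5KO cells, as for 1.44% of all genes tested. The markers' part in the results was not tested.

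Partner genes of these pathways were then counted, as a description beside the shares of all genes given above. The list for release of ATP and hydrolysis of extracellular nucleotides held 13 genes. In NFAT5KO cells 2 of 9 tested rose and 0 fell by limma (1 by DESeq2, 2 at an unadjusted p below 0.05). In control cells 5 of 12 tested rose and 1 fell by limma (2 by edgeR, 3 at an unadjusted p below 0.05 by limma). The median log2 fold change was 0.10 in NFAT5KO and 0.18 in control cells. *Panx3*, an ATP-releasing channel of bone cells, had a log2 fold change of 0.54 ± 0.12 in NFAT5KO and 1.12 ± 0.07 in control cells, and *Enpp2*, which makes lysophosphatidic acid, had 0.92 ± 0.15 and 1.27 ± 0.06. The NFAT5KO call of *Panx3* was lost without -NaCl replicate 2 (adjusted p = 0.0680 by limma) or 3 (adjusted p = 0.0618). Of the 10 genes tested for a difference of the responses, 0 passed by limma, 0 by edgeR and 1 by DESeq2, with 3 lower at an unadjusted p below 0.05 and a median difference of -0.27.

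The list for phosphocholine and sphingomyelin turnover is not limited to steps that supply PHOSPHO1. It had 4 of 12 genes rising and 1 falling in NFAT5KO cells, and 5 rising and 1 falling in control cells. The median log2 fold change was 0.08 in NFAT5KO and 0.25 in control cells, and the median difference -0.19. *Sgms2*, a sphingomyelin synthase, had log2 fold changes of 1.04 ± 0.15 in NFAT5KO and 1.14 ± 0.08 in control cells. *Pcyt1a*, the rate-limiting enzyme of phosphatidylcholine synthesis, had 0.53 ± 0.08 and 0.88 ± 0.06. *Smpd1*, the acid sphingomyelinase, averaged 1552 ± 97.8 normalized counts in NFAT5KO cells with +NaCl and 1440.2 ± 34.1 with -NaCl, and 1696 ± 82.6 in control cells with +NaCl and 1167 ± 49.7 with -NaCl (SD, n = 3). It was the gene of this list whose responses differed, by -0.43 ± 0.08 (adjusted p = 0.0098 by limma, 0.0758 without the trend).

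Inositol pyrophosphates are the signals that open XPR1. In their list of 12 genes, 2 of 10 tested rose in NFAT5KO cells by limma (1 by edgeR, 3 by DESeq2) and 4 in control cells, and 0 fell by any of the 3 tools or at an unadjusted p below 0.05. The median log2 fold change was 0.08 in NFAT5KO and 0.06 in control cells, and 0 differed by any of the tools, with 1 at an unadjusted p below 0.05. The inositol hexakisphosphate kinases *Ip6k1* and *Ip6k2* had log2 fold changes of 0.20 ± 0.06 and 0.20 ± 0.07 in NFAT5KO cells, and 0.28 ± 0.04 and 0.42 ± 0.05 in control cells. In NFAT5KO cells *Ip6k1* passed by limma but not by edgeR (adjusted p = 0.0558) or without any of 5 of the 6 libraries (adjusted p up to 0.185), and *Ip6k2* passed by DESeq2 (adjusted p = 0.0462) and, by limma, without NFAT5KO -NaCl replicate 1 (adjusted p = 0.0480). *Nudt4*, a phosphohydrolase of these molecules, had 0.22 ± 0.05 in NFAT5KO and 0.28 ± 0.05 in control cells, and its NFAT5KO call was lost on leaving out any of 4 of the 6 libraries (adjusted p up to 0.0966 by limma).

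Other phosphate transporters and intracellular pyrophosphatases had 1 of 7 genes tested, of 13 listed, falling in NFAT5KO cells. In control cells 0 passed by limma, edgeR or DESeq2, with 1 higher and 1 lower at an unadjusted p below 0.05 by limma. The median log2 fold change was -0.20 in NFAT5KO and -0.05 in control cells. The falling gene was *Slc37a4*, the glucose-6-phosphate translocase of the endoplasmic reticulum, with -0.24 ± 0.07 in NFAT5KO and -0.11 ± 0.06 in control cells. Its call was lost on leaving out any of 5 of the 6 NFAT5KO libraries (adjusted p up to 0.155 by limma). *Slc25a3*, the mitochondrial phosphate carrier, had -0.11 ± 0.05 and -0.10 ± 0.04. *Lhpp*, a phosphatase, averaged 221 ± 11.1 normalized counts in NFAT5KO cells with +NaCl and 274 ± 4.07 with -NaCl, and 319 ± 11.5 in control cells with +NaCl and 275 ± 9.92 with -NaCl. Its responses differed by -0.52 ± 0.12 (adjusted p = 0.0310 by limma), a call lost on leaving out any of 8 of the 12 libraries (adjusted p up to 0.0851).

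Crystal inhibitors and matrix vesicle annexins had 3 of 6 genes whose responses differed, all lower in NFAT5KO cells. By limma 2 of the 6 fell in NFAT5KO cells, and 3 rose and 1 fell in control cells, with medians of -0.02 and 0.25. *Mgp*, an inhibitor of calcification, averaged 77.7 ± 6.36 normalized counts in NFAT5KO cells with +NaCl and 161 ± 42.3 with -NaCl, and 95.7 ± 15.6 in control cells with +NaCl and 83.1 ± 10.9 with -NaCl. *Spp1*, which encodes osteopontin, averaged 13983 ± 2226 in NFAT5KO cells with +NaCl and 15281 ± 2182 with -NaCl, and 13901 ± 747 in control cells with +NaCl and 9136 ± 666 with -NaCl. *Anxa5*, a calcium-dependent phospholipid-binding protein of matrix vesicles, had log2 fold changes of 0.12 ± 0.05 in NFAT5KO and 0.56 ± 0.04 in control cells. The differences were -1.21 for *Mgp* (adjusted p = 0.0362), -0.74 for *Spp1* (adjusted p = 0.0175) and -0.44 for *Anxa5* (adjusted p = 8.7e-04). The call of *Mgp* was lost on leaving out any of 10 of the 12 libraries and that of *Spp1* for 3 of them, and both were lost without the trend (adjusted p = 0.117 for *Mgp* and 0.148 for *Spp1*). *Anxa6*, a related annexin, fell by 0.37 on the log2 scale in each genotype, with a 95% interval of the difference of -0.15 to 0.15.

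In the list for the pappalysin axis, 1 of 5 genes rose and 1 fell in each genotype by limma. The rise in NFAT5KO cells, of *Igfbp5*, was not called by edgeR (adjusted p = 0.0509) or by limma without any of 5 of the 6 libraries (adjusted p up to 0.168). The pappalysins, which stanniocalcins bind, were low. *Pappa* averaged 0.69 to 3.17 normalized counts in a group, and *Pappa2* averaged 13.6 in NFAT5KO cells with +NaCl. The log2 fold change of *Pappa2* was 1.12 ± 0.47 in NFAT5KO and 0.78 ± 0.39 in control cells. Neither passed by limma (adjusted p = 0.136 and 0.180). *Pappa* had -0.22 ± 0.82 and -0.88 ± 0.84, also without passing. The median log2 fold change of the 5 genes was 0.24 in NFAT5KO and -0.10 in control cells. *Igfbp5*, an insulin-like growth factor binding protein cleaved by pappalysins, averaged 1319.9 ± 44.7 normalized counts in NFAT5KO cells with +NaCl and 1121 ± 98.8 with -NaCl, and 3547 ± 37.8 in control cells with +NaCl and 1271 ± 11.2 with -NaCl. Its responses differed by -1.24 ± 0.08 (adjusted p = 3.4e-07 by limma). *Igfbp4*, another such substrate, fell by 0.32 on the log2 scale in NFAT5KO and by 0.46 in control cells.

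The genes most like each of the 10 over the 12 libraries were found among 10041 genes, by the root mean square distance of log2(CPM + 1), each gene centred on its mean. *Col11a1* was nearest to *Enpp1* (0.0917), *Pth1r* to *Ankh* (0.0642), *Panx3* to *Phospho1* (0.186) and *Sgms2* to *Smpd3* (0.106). *Skil* was nearest to *Slc20a1* (0.0516), *Tmem165* to *Slc20a2* (0.0491), *Blzf1* to *Xpr1* (0.0844), *Arhgef11* to *Stc1* (0.111) and *Atf4* to *Stc2* (0.113). The second nearest were *Cmtm4*, *Rgs3*, *Mrpl45*, *Slc38a4*, *Ibsp*, *Lmbr1*, *Akap8*, *Dnaaf5*, *Tenm4* and *Sars*, in the order in which the 10 genes are named at the start. Small distances among genes with little change say only that these profiles are flat.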

How the data were processed

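Poly-A RNA was sequenced by a commercial provider for the authors (NEBNext Ultra RNA kit, paired-end NovaSeq reads). The aligner, counter and strandedness are not given in the sources used here. The submitters' processing notes name the build mm10, whereas gene identifiers and coordinates are of rat. The deposited values are a signal, normalized read counts that the authors obtained by scaling each library with its own factor, in 1 table per genotype (18834 genes for NFAT5KO, 19414 for control). The tables were thus scaled apart from each other. Table names conflict with the genotype in the column labels, and the labels were followed. Authors' group means, fold changes and p-values in the tables were not used, nor were 24 columns of values without a sample name.

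Whole reads were recovered from the smallest step of each library (100% of values whole within 0.1 read). Log2(normalized count + 1), a scale that understates changes of low genes, was tested with limma 3.58.1 (R 4.3.3; moderated t-statistics with a trend on the mean) in genes averaging 1 or more, within each genotype and, in 1 model of the 12 libraries, for the difference of responses. Adjusted p-values are Benjamini-Hochberg over all genes tested, with a threshold of 0.05; an exact permutation test of 3 against 3 libraries cannot go below 0.1. Alternatives were pseudocounts of 0.5 and 5, a minimum mean of 10 or none, equal totals, TMM, edgeR 4.0.16 and DESeq2 1.42.0 on recovered reads, no trend, a replicate block and leaving out each library. Scripts were tested on simulated data. Named genes were the 10 members, Nfat5, genes of each partner list whose responses differed and the 2 with the smallest p in each genotype, and the 2 nearest genes by profile among genes averaging 50 or more. The gene nearest to Alpl is not reported here. Members and lists were chosen with earlier results of these data known.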

Additional observations from a re-analysis of the deposited data

Results flagged for a closer look

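The response to +NaCl differed between the genotypes, by the test of the difference itself (limma, adjusted over 16849 genes), for 3 of the 10 genes, 6 partner genes and the osteoblast marker *Runx2*. The NFAT5KO minus control difference of log2 fold changes was -0.48 for *Enpp1*, -0.40 for *Ankh* and -0.56 for *Alpl*. Among partner genes it was -0.43 for *Smpd1*, -0.52 for *Lhpp*, -1.21 for *Mgp*, -0.74 for *Spp1*, -0.44 for *Anxa5* and -1.24 for *Igfbp5*. It was -0.33 for *Runx2* (adjusted p = 0.0310), whose call was not examined without the trend or with a library left out. All of these were lower in NFAT5KO cells, as were 243 of the 304 genes that differed among all those tested.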

How the results depend on the processing

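Each of the 30 test results of the 10 genes was recomputed under 10 settings and leaving out each library in turn. Of 300 values under other settings 291 kept direction and call, and of 240 values with a library left out 226 did. Without the mean-variance trend, 14 genes passed in NFAT5KO cells instead of 2441, 2763 instead of 4450 in control cells and 103 instead of 304 for the difference. There, 0 of the 10 genes passed in NFAT5KO cells, against 4 by edgeR and 4 by DESeq2, with 5 at an unadjusted p below 0.05 (adjusted p 0.0860 for *Enpp1* and *Ankh*, 0.107 for *Phospho1*, 0.0846 for *Smpd3*) and 1, *Alpl*, for the difference; the cause was not tested. The NFAT5KO calls of *Nfat5*, *Panx3*, *Enpp2*, *Pcyt1a*, *Sgms2*, *Ip6k1*, *Nudt4*, *Slc37a4*, *Mgp*, *Anxa6*, *Igfbp4* and *Igfbp5* were lost as well (adjusted p 0.0764 to 0.174). DESeq2 gave 468 genes for the difference; the cause was not tested. Leaving out 1 library gave 943 to 2709 genes in NFAT5KO cells, 3321 to 4239 in control cells and 159 to 257 for the difference, and 4 to 5, 5 to 5 and 2 to 3 of the 10 genes. Counts moved by over 1.5 times in NFAT5KO cells without +NaCl replicate 3 (1421), -NaCl replicate 2 (943) or -NaCl replicate 3 (1116). For the difference they did so without control +NaCl replicate 1 (200), 2 (176) or 3 (159) and control -NaCl replicate 1 (180) or 2 (171).

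Values near 0 changed sign. The *Smpd3* difference was -0.0272 with edgeR and -0.0227 with DESeq2, and -0.13 to 0.25 with a library left out. Leaving out a library gave -0.026 to 0.10 for the *Slc20a1* difference, and in NFAT5KO cells -0.12 to 0.0441 for *Xpr1*, -0.10 to 0.0633 for *Stc1* and -0.23 to 0.0027 for *Spp1*. It gave differences of -0.26 to 0.12 for *Sgms2*, -0.0348 to 0.0029 for *Slc25a3* and -0.0405 to 0.0578 for *Anxa6*.

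Replicate numbers did not pair the libraries, with correlations of same-numbered deviations of -0.098 to 0.145. With the replicate number as a block, *Stc2* passed in control cells (adjusted p = 0.0328), and no other call of the 10 genes changed; among partner genes, the difference was lost for *Lhpp* (adjusted p = 0.0696) and *Mgp* (adjusted p = 0.0601) and gained for *Panx3* (-0.58, adjusted p = 0.0199), and the NFAT5KO call was lost for *Ip6k1* (adjusted p = 0.0561) and *Slc37a4* (adjusted p = 0.0717). With TMM scaling the genotype ratio was 1.02 for *Slc20a2* with -NaCl and 0.783 for *Stc2* with +NaCl. The depth limits *Stc1* most, at 93 to 266 reads a library.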
